A study of Mus musculus with 8 samples.

Results

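The genes described are those of glutathione synthesis, glutathione transfer and glutathione peroxidation, measured by RNA-seq in mouse embryonic stem cells (mESCs) with and without Pcgf5, a Polycomb gene, before and after neural differentiation. They were taken by gene symbol, as every row of the files named for a glutathione transferase (Gsta, Gstk, Gstm, Gsto, Gstp, Gstt, Gstz, Mgst), a gamma-glutamyl transferase (Ggt), a glutathione peroxidase (Gpx), a subunit of glutamate-cysteine ligase (Gclc, Gclm), glutathione synthetase (Gss) or glutathione reductase (Gsr). This gave 41 of 24849 rows. No measured value entered that choice of rows, but the family was picked with these expression values already known, so that its counts describe the family and are not independent evidence about it. All 8 samples came from the mESC line MPI-II of strain 129S2/SvPas, with 2 samples, called biological replicates by the design text, in each of the 4 conditions. Wild type and Pcgf5-/- cells were sampled at day 0, when they grew on feeder cells with serum, leukemia inhibitory factor and 2i inhibitors, and after 6 days in N2B27, which has no serum and is used for neural induction. Medium and day cannot be told apart in this design, and per the study's methods both media held 2-mercaptoethanol, a reducing agent. The Pcgf5-/- cells were made with a TALEN pair at exon 2 and grown from drug-selected single colonies, and the sources used here do not say whether the sequenced samples came from more than 1 clone. Polyadenylated RNA was sequenced, and the values are FPKM (fragments scaled by exon length and by the number of fragments mapped in the library).

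Glutathione is a small peptide made of glutamate, cysteine and glycine, and it is the most abundant thiol of most cells. Glutamate-cysteine ligase joins the first pair of amino acids and glutathione synthetase adds glycine. Peroxidases spend glutathione to reduce hydrogen peroxide and lipid peroxides, transferases couple it to reactive compounds, glutathione reductase turns the oxidised form back with NADPH, and gamma-glutamyl transferases start its breakdown at the cell surface.

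The pi-class transferases Gstp1 and Gstp2 span 6.81 kb together on chromosome 19 (NCBIM37, mm9; Gstp1 at 4035411 to 4037912, Gstp2 at 4040288 to 4042221) and are near-identical copies, which bears on every value given for them. Their coding sequences in the GENCODE annotation of NCBIM37 are both 633 bases long and differ at 12 positions, an identity of 98.1%. The first 60 coding bases hold 6 of these differences, shown in capitals, and the last 303 bases (331 to 633) are the same in both.
Gstp1: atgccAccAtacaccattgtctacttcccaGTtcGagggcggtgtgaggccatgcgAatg
Gstp2: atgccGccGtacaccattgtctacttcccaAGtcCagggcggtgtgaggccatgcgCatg
Of all stretches of 50 bases in their transcripts, 67.5% of those of Gstp1 and 67.9% of those of Gstp2 occur in the other gene, so the share of fragments given to each is uncertain and the sum of both is given beside them. Among the tested members, the next largest shares of such stretches found in another gene were 18.3% for Gstt3, 15.3% for Gstm3 and 12.7% for Gstm1.

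The targeted gene Pcgf5 had 5.18 and 3.63 FPKM in wild type samples against 1.28 and 1.84 FPKM in Pcgf5-/- samples at day 0, and 9.16 and 5.06 FPKM against 0.669 and 0.457 FPKM at day 6. Neither genotype reached into the range of the other at either day, Pcgf5-/- being lower, and the difference passed the test at day 6 (log2 fold change -2.33, limma adjusted p = 0.00421) but not at day 0 (-1.07, limma adjusted p = 0.105). The files hold no read counts, and the steps between low values put the depth of the samples within 0.993 to 1.283 times that of wild type day 0 replicate 1. Genes of chromosomes 6 and 11 were shifted as a whole in Pcgf5-/- cells, with median log2 fold changes against wild type of 0.41 and 0.48 at day 0 and 0.37 and 0.38 at day 6, while other chromosomes had medians from 0.04 to 0.12 and from -0.06 to 0.03. Of the tested members only Gpx3 (chromosome 11), Gstk1 and Mgst1 (chromosome 6) lie there. The library of Pcgf5-/- day 0 replicate 2 stood apart in 14 feeder fibroblast markers, whose FPKM summed to 808 against 232 to 387 in the other day 0 libraries.

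Of the 41 genes, 32 had a mean FPKM over 1 in at least 1 condition and were tested, 24 of them with a mean over 1 in all 4 conditions. The 9 genes below that level were Gsta1, Gsta2, Ggt5, Ggt6, Mgst2, Gsto2, Gstt4, the pseudogene Gpx2-ps1 and Gpx5, and the highest single value among them was 0.625 FPKM (Gsto2). Gpx5 was listed at 0 in all 8 samples. The same 3 genes led in every condition, namely Gpx4, which reduces lipid peroxides within membranes, Gsta4, an alpha-class transferase acting on lipid aldehydes, and Gpx1, the main cytosolic peroxidase. Gpx4 was first in each, with means of 281 and 178 FPKM in wild type at day 0 and day 6 and of 227 and 332 FPKM in Pcgf5-/- cells. In wild type Gsta4 followed at 277 and 168 FPKM and Gpx1 at 236 and 118 FPKM. These levels compare genes per length of transcript, and the removal of identical reads by the authors can lower the most abundant ones.

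**Figure D1:**
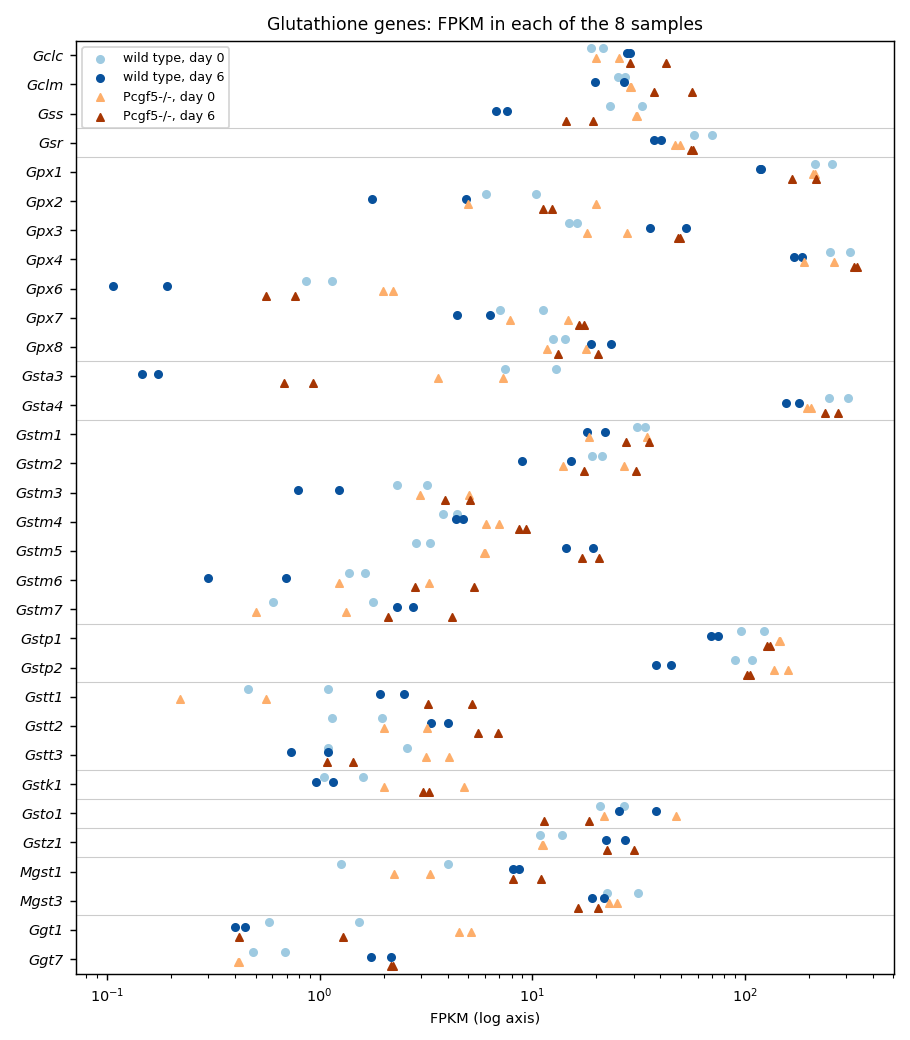
FPKM (x axis, log scale) of the 32 tested glutathione genes (y axis, grouped by class and separated by grey lines) in each of the 8 samples; circles are wild type and triangles Pcgf5-/-, pale at day 0 and dark at day 6. Gss, Gsr, Gpx4 and Gstp2 have their wild type day 6 points to the left of their Pcgf5-/- day 6 points, while Gsto1 has them to the right.

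At day 6, 12 of the 32 tested glutathione genes were higher in Pcgf5-/- cells than in wild type and none was lower, by limma on log2(FPKM + 1) with Benjamini-Hochberg adjustment over all 13214 tested genes. Of all tested genes 9.57% were called higher and 7.05% lower. The fold changes of the family ran from -1.06 to 1.72 on the log2(FPKM + 1) scale with a median of 0.63, against 0.02 for all tested genes, and 29 were above 0 and 3 below. With the median of each chromosome removed 27 were above 0, as Gpx3 and Mgst1, on the shifted chromosomes, changed sign, and the same number of 12 was called. In 22 genes both Pcgf5-/- samples lay above both wild type samples, in Gsto1 both lay below, and in 9 the groups overlapped, where 33.4% of all tested genes lay fully above and 28.8% fully below. The 12 called genes came from synthesis (Gclm, Gss), reduction (Gsr), peroxidases (Gpx1, Gpx4, Gpx7) and the alpha, mu and pi transferases (Gsta4, Gstm3, Gstm4, Gstm6, Gstp1, Gstp2), and none of them lies on chromosome 6 or 11. The count fell in each fit that left out a day 6 library, most without wild type day 6 replicate 2 and least without wild type day 6 replicate 1. Higher calls among all tested genes fell in the same fits. Without either Pcgf5-/- day 0 library a few more members were called higher, and Gsto1 was called lower. Gstp2 was the only gene to keep its call whichever library was left out, and the direction of the 12 called genes held in every setting.

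**Figure D2:**
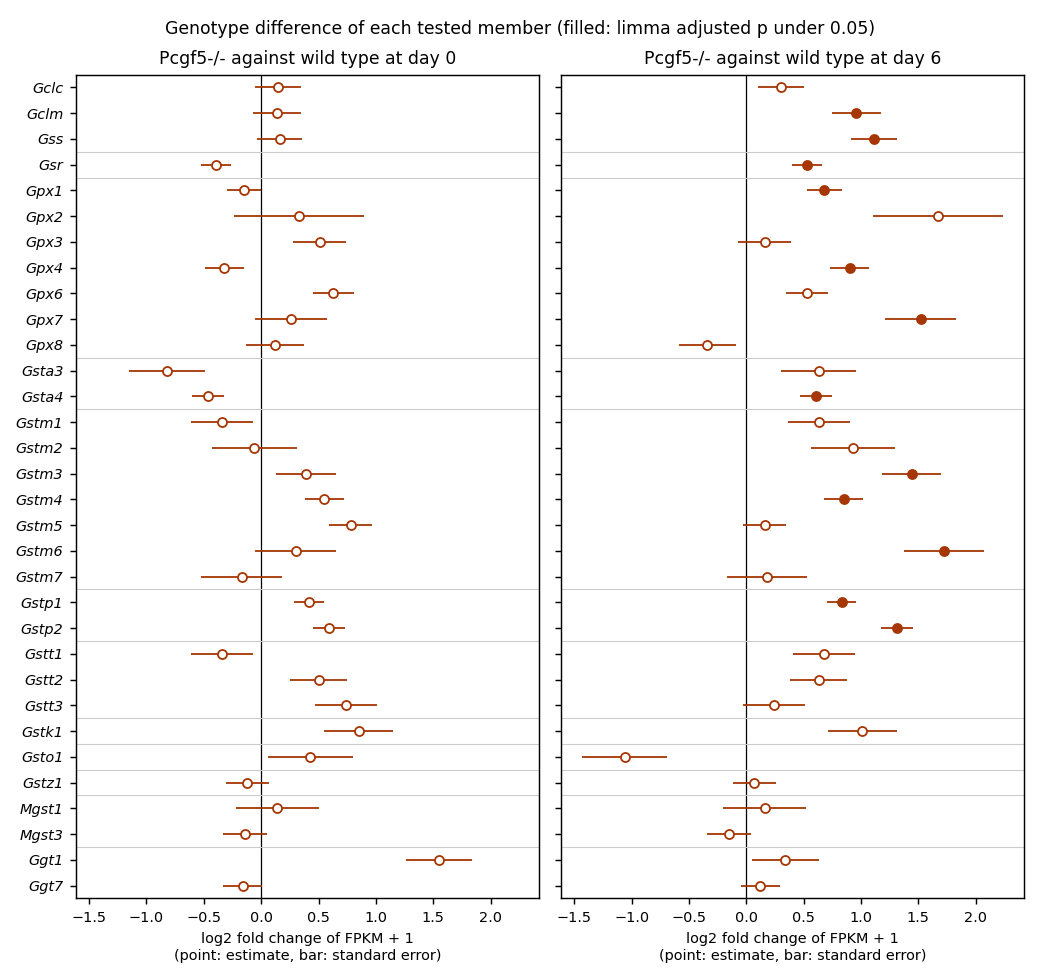
Log2 fold change of FPKM + 1 (x axis) of each tested glutathione gene (y axis) in Pcgf5-/- against wild type cells at day 0 (left) and day 6 (right); points are limma estimates, bars standard errors, and filled points passed an adjusted p of 0.05. No point is filled at day 0, and 12 points are filled at day 6, all to the right of 0.

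Among the genes of synthesis, Gss, whose enzyme adds glycine in the last step, had 7.62 and 6.79 FPKM in wild type samples against 14.5 and 19.3 FPKM in Pcgf5-/- samples at day 6. The groups did not overlap, and the mean was 2.35 times higher in Pcgf5-/- cells (log2 fold change 1.11, standard error 0.20, limma adjusted p = 0.0115). Gclm, the modifier subunit of glutamate-cysteine ligase, had 26.9 and 19.8 FPKM in wild type against 56.6 and 37.3 FPKM without Pcgf5 (0.96, standard error 0.21, limma adjusted p = 0.0217). The Pcgf5-/- samples of Gclm differed widely from each other but both lay above wild type. Gclc, the catalytic subunit of the same enzyme, had 28.7 and 27.8 FPKM against 42.8 and 28.8 FPKM and did not pass the test (0.30, limma adjusted p = 0.341). Gsr, the reductase that regenerates glutathione, had 37.3 and 40.3 FPKM in wild type against 56.8 and 55.9 FPKM without Pcgf5, 1.45 times higher (0.53, standard error 0.13, limma adjusted p = 0.0311).

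Of 7 tested peroxidases 3 were higher in Pcgf5-/- cells at day 6. Gpx4 had 185 and 170 FPKM in wild type against 326 and 338 FPKM without Pcgf5, 1.87 times higher (log2 fold change 0.90, standard error 0.17, limma adjusted p = 0.0141). Gpx1 had 118 and 119 FPKM against 166 and 217 FPKM (0.68, standard error 0.15, limma adjusted p = 0.0225). Gpx7, a thiol peroxidase of the endoplasmic reticulum, showed a larger ratio at a lower level, with 6.36 and 4.43 FPKM in wild type against 17.6 and 16.6 FPKM without Pcgf5, 3.18 times higher (1.52, standard error 0.31, limma adjusted p = 0.0169). In none of these genes did the groups overlap. Gpx2, best known from gut epithelium, had 4.90 and 1.76 FPKM against 11.3 and 12.4 FPKM, and it did not pass (1.67, standard error 0.57, limma adjusted p = 0.0798). Gpx6 stayed under 1 FPKM in both genotypes at day 6 (0.53, limma adjusted p = 0.0742). Gpx3, the secreted peroxidase of plasma, had 53.1 and 35.8 FPKM against 49.5 and 48.4 FPKM, and its log2 fold change of 0.16 was below the median of chromosome 11, on which it lies. Gpx8, a relative of Gpx7 in the same compartment, had 19 and 23.6 FPKM against 13.3 and 20.5 FPKM (-0.34, limma adjusted p = 0.39), so these related enzymes had fold changes of opposite sign, only that of Gpx7 past the threshold.

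Of the cytosolic transferases, Gstp2 had 45.1 and 38.1 FPKM in wild type samples against 106 and 103 FPKM in Pcgf5-/- samples at day 6, 2.51 times higher (log2 fold change 1.31, standard error 0.14, limma adjusted p = 0.00393). Gstp1 had 75.0 and 69.7 FPKM against 127 and 132 FPKM (0.83, standard error 0.13, limma adjusted p = 0.00888). Since the copies share most of their sequence, as printed above for their first 60 coding bases, their sum was also taken, and it was 120 and 108 FPKM in wild type against 233 and 235 FPKM in Pcgf5-/- cells. The sum showed the same separation of the genotypes as each gene did. Gsta4 had 156 and 180 FPKM against 239 and 276 FPKM, 1.53 times higher (0.61, standard error 0.14, limma adjusted p = 0.0241).

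The mu-class genes stand in 1 block of 7 genes on chromosome 3 (107698772 to 107847777, NCBIM37), and differences between them were not tested. All 7 had a log2 fold change above 0 at day 6, from 0.16 (Gstm5) to 1.72 (Gstm6), and 3 passed the test. Gstm6 had 0.692 and 0.298 FPKM in wild type against 2.80 and 5.30 FPKM without Pcgf5 (1.72, standard error 0.35, limma adjusted p = 0.0165), and Gstm3 had 1.24 and 0.794 FPKM against 5.08 and 3.89 FPKM (1.44, standard error 0.26, limma adjusted p = 0.0117). Both were weakly expressed, and for member values between 1 and 5 FPKM the interval given by Cufflinks reached a median of 33.3% to either side. For the wild type day 6 values it reached 52.3% and 76.5% for Gstm6 and 40.1% and 48.9% for Gstm3. Gstm4 had 4.72 and 4.38 FPKM against 8.68 and 9.34 FPKM (0.85, standard error 0.17, limma adjusted p = 0.0156). The more abundant Gstm1 and Gstm2 lay apart between the genotypes, with 18.2 and 21.9 FPKM against 27.7 and 35.4 FPKM for Gstm1, but neither passed (limma adjusted p = 0.143 and 0.12). Gstm5, a mu-class gene known from brain and testis, had 14.5 and 19.3 FPKM against 17.2 and 20.6 FPKM, and these samples overlapped.

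Of the remaining transferases none passed at day 6. Gsto1, an omega-class enzyme that reduces dehydroascorbate, had 25.7 and 38.3 FPKM in wild type against 11.4 and 18.5 FPKM without Pcgf5 (log2 fold change -1.06, limma adjusted p = 0.0871). Gstk1, the kappa-class transferase of mitochondria and peroxisomes, had 0.964 and 1.16 FPKM against 3.26 and 3.05 FPKM (1.01, limma adjusted p = 0.0529), and its difference was 0.64 above the median of its chromosome. Gstt1 and Gstt2, theta-class genes of 1 block on chromosome 10, had fold changes of 0.68 and 0.63 (limma adjusted p = 0.122 for both). The membrane enzymes Mgst1 and Mgst3 (0.16 and -0.15), the zeta-class Gstz1 (0.07) and the surface enzymes Ggt1 and Ggt7 (0.34 and 0.12) had limma adjusted p from 0.464 to 0.836. A p above the threshold does not show equal levels with 2 samples per condition.

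**Figure D3:**
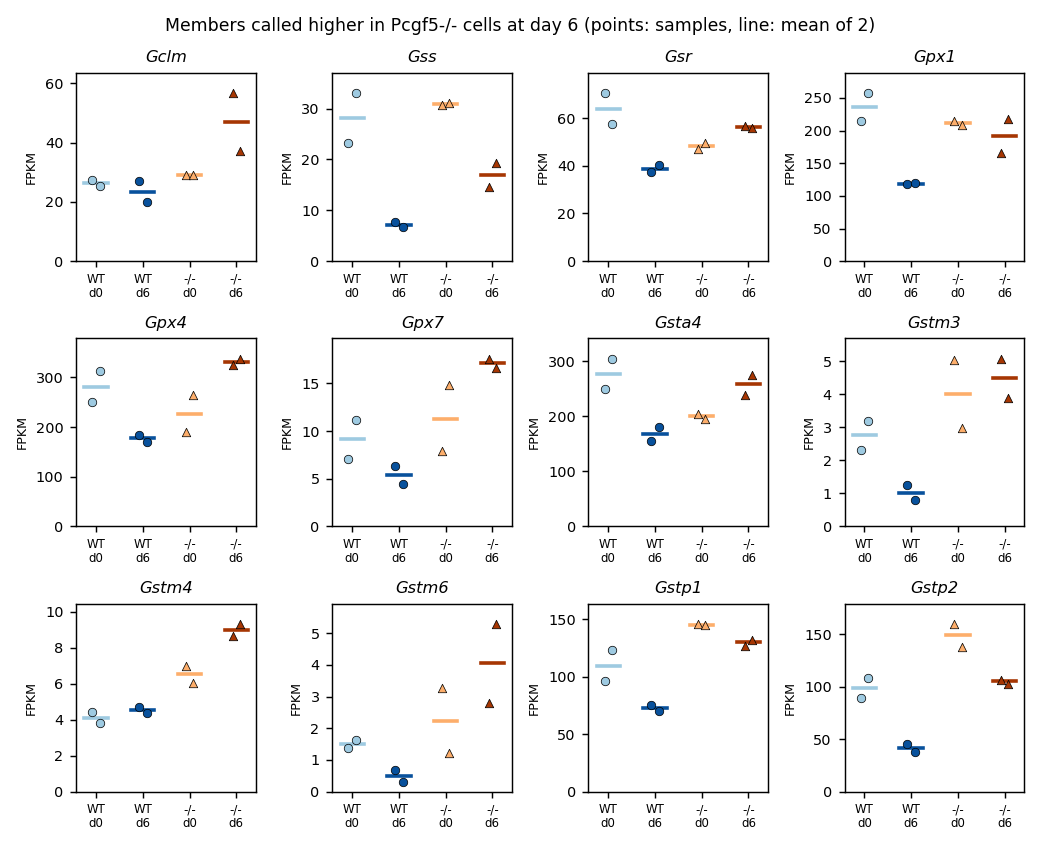
FPKM (y axis, from 0, a scale for each panel) of the 12 glutathione genes called higher in Pcgf5-/- cells at day 6, by condition (x axis; WT is wild type, -/- is Pcgf5-/-, d0 and d6 are the days); points are samples and lines the mean of 2. In each panel both Pcgf5-/- day 6 points lie above both wild type day 6 points, and Gss, Gpx1 and Gstp2 show the lower wild type level at day 6 than at day 0.

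Cell type markers moved with the same contrast. At day 6, 11 of 12 markers of naive pluripotency were higher in Pcgf5-/- cells, with sums of 899 and 772 FPKM against 280 and 116 FPKM in wild type, and none of the 12 was at 0 or under 1 FPKM in any condition. All 10 neural progenitor markers were lower, with sums of 207 and 215 FPKM against 540 and 564 FPKM, and 4 of 7 neuron markers were lower, with sums of 170 and 155 FPKM against 451 and 324 FPKM. Feeder fibroblast markers were at 38.8 and 38.2 FPKM against 51.3 and 61.9 FPKM, with none of 14 at 0 in both samples of a genotype. Primitive endoderm markers summed to 57.0 FPKM in wild type replicate 1 and to between 7.80 and 17.8 FPKM in the other day 6 libraries. The part of these cell types in the glutathione genes' difference was not tested, and in such bulk samples fewer cells of a type and less RNA per cell cannot be told apart.

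At day 0 none of the 32 glutathione genes passed between the genotypes by limma, and 0.333% of all tested genes did, 0.288% being higher and 0.0454% lower. At an unadjusted p under 0.05 there were 11, and 2294 among all 13214 tested genes. The family's median log2 fold change was 0.16 against 0.11 for all tested genes, with 20 above 0 and 12 below. Quantile normalization lowered the all-gene median to -0.01 and the family's to 0.04, with 18 above 0. The gene furthest apart was Ggt1, which cleaves glutathione outside the cell, at 1.54 and 0.581 FPKM in wild type against 4.55 and 5.18 FPKM without Pcgf5 (1.55, standard error 0.29, limma adjusted p = 0.0628). Gstm5 had 2.83 and 3.32 FPKM against 5.96 and 6.03 FPKM (0.78, limma adjusted p = 0.0863) and Gstp2 had 89.6 and 108 FPKM against 160 and 138 FPKM (0.59, limma adjusted p = 0.09). The samples of these genes did not overlap between the genotypes, and neither did those of Gsta4 and Gsr, which lay on the other side. Among the 32 members 11 lay fully above wild type at day 0 and 4 fully below. Of all tested genes 34.6% lay fully above and 13.3% fully below, so such separation was common. Gsta4 had 249 and 305 FPKM in wild type against 204 and 196 FPKM (-0.46, limma adjusted p = 0.144), and Gsr had 70.4 and 57.4 FPKM against 46.9 and 49.5 FPKM (-0.39, limma adjusted p = 0.173). Some members stood apart in 1 Pcgf5-/- library, and this was seen in either replicate. In replicate 2, with the high feeder markers, Gsto1 had 47.5 FPKM and Gpx7 14.8 FPKM. The other day 0 libraries had 20.8 to 26.9 FPKM and 7.04 to 11.2 FPKM. Gstm1 had 18.6 FPKM and Gstm2 13.9 FPKM there, below 31.1 to 34.8 FPKM and 19.2 to 26.9 FPKM. In replicate 1 Gpx2 had 20 FPKM, Gstk1 4.78 FPKM and Gstm6 3.26 FPKM. The other day 0 libraries had 5 to 10.4 FPKM, 1.05 to 2.02 FPKM and 1.23 to 1.63 FPKM. The part of feeder RNA in these values was not tested.

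In wild type, 10 of the 32 genes fell from day 0 to day 6 and 7 rose, while 16.2% of all tested genes fell and 34.2% rose (limma, 50.5% called in all). The family's median log2 fold change was -0.51 against 0.22 over all tested genes. Quantile normalization moved the all-gene median to 0.00 and left the family's at -0.51, with 15 called lower and 5 higher, and the calls of Gpx4, Gstt1 and Gstt2 were lost. Relative to the all-gene median the family's median was thus lower under both scalings. Of the marker lists, 11 of 14 feeder fibroblast markers and 11 of 12 of naive pluripotency fell in wild type (median log2 fold changes -2.36 and -3.35), and 10 of 10 neural progenitor markers rose (4.78). In Pcgf5-/- cells 11 of 14 and 9 of 12 fell (-3.05 and -1.35) and 9 of 10 rose (3.08). Their part in the day changes of the glutathione genes was not tested. This comparison and that of the genotypes at day 6 share the wild type day 6 samples, so that a low value there enters both. Of the 17 calls 12 held whichever library was left out, and Gpx4, Gstm3, Gstp1, Gstt1 and Gstt2 lost theirs without wild type day 6 replicate 2, all but Gstp1 also without wild type day 0 replicate 2.

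The genes that fell in wild type included the leading ones. Gsta3, an alpha-class transferase, went from 7.43 and 13.0 FPKM to 0.173 and 0.146 FPKM, a change of -3.23 on the log2 scale (standard error 0.33, limma adjusted p = 0.000141). Gss went from 23.2 and 33.0 FPKM to 7.62 and 6.79 FPKM (-1.81, standard error 0.20, limma adjusted p = 0.000221). Gstp2 went from 89.6 and 108 FPKM to 45.1 and 38.1 FPKM (-1.23, standard error 0.14, limma adjusted p = 0.000284) and Gpx1 from 214 and 257 FPKM to 118 and 119 FPKM (-0.98, standard error 0.15, limma adjusted p = 0.0011). In each of them both day 6 samples lay below both day 0 samples, as they did in 28.1% of all tested genes. Gstm3, Gpx6, Gsta4, Gsr, Gpx4 and Gstp1 fell too, with log2 fold changes from -0.90 to -0.58.

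The genes that rose in wild type were of the mu, theta, zeta, microsomal, peroxidase and Ggt classes, and in the mu class and the peroxidases other members fell. Gstm5 went from 2.83 and 3.32 FPKM to 14.5 and 19.3 FPKM, 5.49 times higher (log2 fold change 2.12, standard error 0.19, limma adjusted p = 7.5e-05). Gpx3 went from 14.9 and 16.2 FPKM to 53.1 and 35.8 FPKM (1.43, standard error 0.23, limma adjusted p = 0.00139). Mgst1, a membrane transferase, went from 4.02 and 1.26 FPKM to 8.68 and 8.11 FPKM (1.48, standard error 0.36, limma adjusted p = 0.00907). Gstz1, which also acts in tyrosine breakdown, rose from 10.9 and 13.8 FPKM to 22.2 and 27.3 FPKM (0.95, limma adjusted p = 0.00386), and Gstt1, Gstt2 and Ggt7 rose by 0.87 to 0.89. In all 7 both day 6 samples lay above both day 0 samples, as they did in 49.5% of all tested genes.

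In Pcgf5-/- cells 11 of the 32 genes rose from day 0 to day 6 and 6 fell, where 21.9% of all tested genes rose and 10.4% fell (limma, 32.3% called in all), and the family's median was 0.27 against 0.13. Quantile normalization moved the all-gene median to 0.02 and the family's to 0.23, with 8 called higher and 6 lower. The count of 17 dropped most in the fits that left out a Pcgf5-/- library, among them day 0 replicate 2, the library with the high feeder markers. Calls among all tested genes dropped in the same fits. Calls for Ggt1, Ggt7, Gpx6, Gsta3, Gstm5, Gstt1 and Gstz1 held whichever library was left out. Ggt1 went from 4.55 and 5.18 FPKM to 1.29 and 0.416 FPKM (log2 fold change -1.70, standard error 0.29, limma adjusted p = 0.00408), and Gstt1 from 0.558 and 0.220 FPKM to 3.24 and 5.19 FPKM (1.89, standard error 0.27, limma adjusted p = 0.00188). Gstm5, Gpx3, Mgst1, Gstz1, Gstt2 and Ggt7 rose by 1.02 to 1.50, as values of separate samples from those of wild type. Gsta3 went from 3.60 and 7.30 FPKM to 0.930 and 0.677 FPKM (-1.78, standard error 0.33, limma adjusted p = 0.00527) and Gss from 30.7 and 31.2 FPKM to 14.5 and 19.3 FPKM (-0.85, standard error 0.20, limma adjusted p = 0.0147).

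Side by side, the day changes of the genotypes had the same sign and passed in both for Gsta3, Gss, Gstp2 and Gpx6, which fell, and for Gstm5, Gpx3, Mgst1, Gstz1, Gstt1, Gstt2 and Ggt7, which rose. Gpx4 was called in opposite directions, going from 251 and 312 FPKM to 185 and 170 FPKM in wild type (log2 fold change -0.65, standard error 0.17, limma adjusted p = 0.0142) and from 190 and 264 FPKM to 326 and 338 FPKM in Pcgf5-/- cells (0.57, standard error 0.17, limma adjusted p = 0.0386). Quantile normalization ended its call in wild type, and the call in Pcgf5-/- cells was lost without any of 5 of the 8 libraries. That call was also lost in 4 of 10 other settings. They were no FPKM minimum, only the conditions compared, no variance trend and chromosome medians removed. Gclc and Gclm rose in Pcgf5-/- cells, by 0.62 and 0.65 (limma adjusted p = 0.0479 and 0.0497), close to the threshold, and had 0.47 and -0.18 in wild type without passing. The call of Gclc was lost in 5 of 10 other settings and in 7 of 8 fits with a library left out. That of Gclm was lost in 7 of 10 and 5 of 8.

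**Figure D4:**
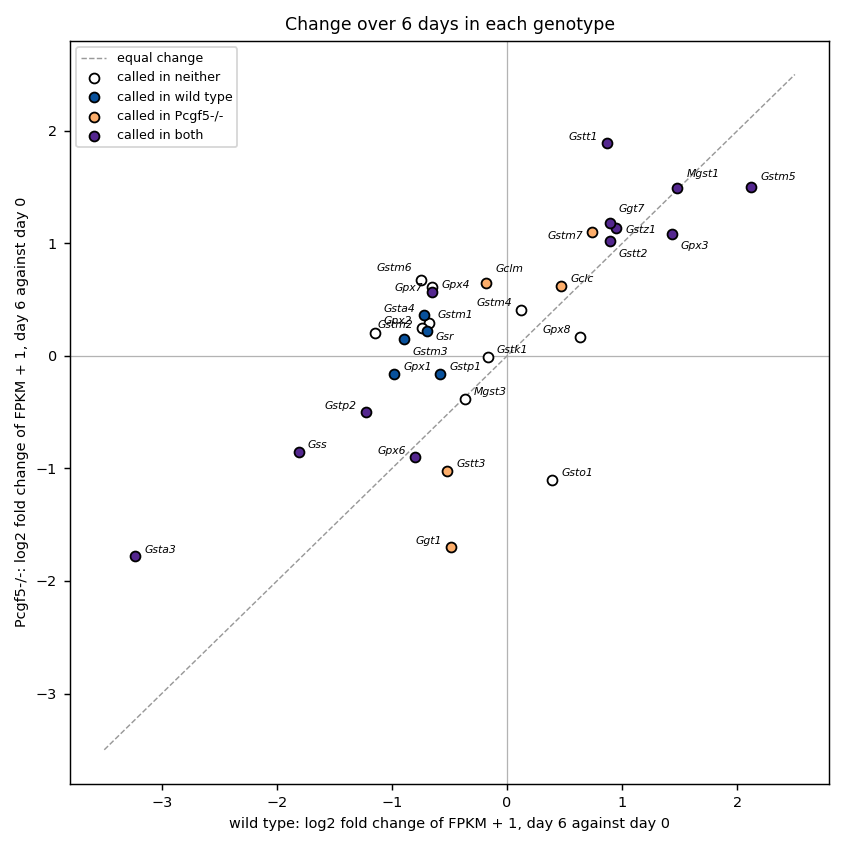
Log2 fold change of FPKM + 1 from day 0 to day 6 in wild type (x axis) against that in Pcgf5-/- cells (y axis) for the 32 tested glutathione genes; colours give the genotype in which limma called the change, and the dashed line marks equal change. Gsta3, Gss, Gstp2, Gpx1, Gpx4, Gsr and Gsta4 lie above the line, Gstm5, Gpx3 and Gsto1 below it.

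Whether the effect of genotype itself changed with time was tested as an interaction, and 3 of the 32 genes passed, all with a larger effect at day 6, where 1.34% of all tested genes passed in that direction and 1.75% in the other (limma, 3.09% in all). They were Gsta4 (1.08, standard error 0.20, limma adjusted p = 0.0363), Gpx4 (1.22, standard error 0.25, limma adjusted p = 0.0435) and Gsr (0.92, standard error 0.19, limma adjusted p = 0.0435). For each, the Pcgf5-/- mean was below wild type at day 0 and above it at day 6. Leaving out a library ended the calls of Gpx4 and Gsr in 8 of 8 cases and that of Gsta4 in 7 of 8. Interaction calls among all tested genes, taken in both directions together, fell in those fits too. Calls in the direction of these 3 genes fell in each fit but that without wild type day 6 replicate 1, where they rose. Of the other genes called at day 6, Gpx1 (0.82), Gstp2 (0.73) and Gss (0.96) had limma adjusted p of 0.0755, 0.0887 and 0.102.

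The block on chromosome 10 (75031407 to 75297626, NCBIM37) holds Ggt1, Ggt5, Gstt3, Gstt1, Gstt4 and Gstt2, and its neighbours went different ways with time. In Pcgf5-/- cells Ggt1 and Gstt3 fell (log2 fold changes -1.70 and -1.02, limma adjusted p = 0.00408 and 0.0236), while Gstt1 and Gstt2 rose (1.89 and 1.02, limma adjusted p = 0.00188 and 0.0167). Ggt5 and Gstt4 stayed at or under 0.161 FPKM in every sample. Gss shares a block of 102 kb on chromosome 2 with Ggt7, and in wild type Gss fell by 1.81 while Ggt7 rose by 0.89.

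Promoters were searched for the core of the antioxidant response element, the element bound by the stress factor NRF2, in the letters TGACNNNGC on either strand. RefSeq gives promoter windows (build GRCm38.p6, 250 bases before to 50 after a start) for 35 of the 41 genes. The letters occurred in a window of 6 of these 35 genes (17.1%), against 14% of all 27025 genes with a window, so the share was near that of all promoters, and none of the matches overlapped an AP-1 site (TGANTCA). Of the genes called in the same direction over the days in both genotypes, 3 had a match. They are shown because they let the letters be set beside the direction of each gene, with 10 or more bases around the letters in capitals, with coordinates of the exact match in NCBIM37, plus strand, and for Mgst1 the letters run on the minus strand.
Gsta3, chr1:21230535-21230564: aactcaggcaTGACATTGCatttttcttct
Gstm5, chr3:107698720-107698749: caccgcccacTGACCACGCggagggcgggt
Mgst1, chr6:138088982-138089011: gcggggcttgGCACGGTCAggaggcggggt
Over the days Gsta3 fell and Gstm5 and Mgst1 rose. The other members with the letters were Gclm, Ggt1 and Gstm7, called over the days in Pcgf5-/- cells only (0.65, -1.70 and 1.10). Gstt2, called in the same direction in both genotypes, had no window to search. A link between the letters and these changes was not tested. Of the 12 genes called at day 6, Gsta4 and Gsr had no window to search, and of the other 10 only Gclm had a match. A match is a description of the sequence and no measured binding site.

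Other genes of the redox network, in lists chosen with earlier results known, were counted in the same fit, and their counts at day 6 stand against the 9.57% of all tested genes called higher and the 7.05% called lower. At day 6, 6 of 17 NRF2 regulators and targets were higher in Pcgf5-/- cells and 1 lower. Nqo1, a quinone reductase and classic NRF2 target, had 15.7 and 10.5 FPKM in wild type against 48.1 and 46.9 FPKM without Pcgf5 (log2 fold change 1.81, standard error 0.21, limma adjusted p = 0.00393). Blvrb, a biliverdin reductase, had 18.8 and 17.8 FPKM against 42.4 and 48.6 FPKM (1.26, limma adjusted p = 0.00651), and Ephx1, an epoxide hydrolase, 3.84 and 3.05 FPKM against 8.83 and 7.77 FPKM (1.07, limma adjusted p = 0.0131). None of these groups overlapped. Of 14 genes of NADPH supply 4 were higher and none lower, among them Me1, the cytosolic malic enzyme (0.80, limma adjusted p = 0.0205), and, on the shifted chromosome 6, Aldh1l1 (1.15) and Mthfd2 (0.81). Of 6 glutaredoxin and glyoxalase genes 2 were higher, Glrx (1.26, limma adjusted p = 0.0131) and Hagh (0.67, limma adjusted p = 0.036). Of 18 thioredoxin and peroxiredoxin genes 1 was higher, Txnip, an inhibitor of thioredoxin, at 26.5 and 24.0 FPKM against 89.4 and 80.3 FPKM (1.71, limma adjusted p = 0.0139). Of 4 superoxide dismutase and catalase genes 1 was higher (Sod2, the mitochondrial enzyme, 0.50, limma adjusted p = 0.0394). Of 11 genes for other transferase folds none passed.

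Cysteine, which glutathione needs, comes from cystine uptake or from methionine through Cbs and Cth. In wild type 6 of 11 genes of cystine and cysteine supply fell over the 6 days and 2 rose. Of all tested genes 16.2% fell and 34.2% rose, the shares beside which the wild type counts of the lists given here stand. Cth, the enzyme that releases cysteine, went from 37.8 and 53.6 FPKM to 5.47 and 5.05 FPKM (log2 fold change -2.88, standard error 0.21, limma adjusted p = 3.3e-05), and Cbs from 12.5 and 10 FPKM to 2.25 and 0.970 FPKM (-2.27, limma adjusted p = 0.000657). Both genes of this route thus lost most of their FPKM, as did Glrx, from 28.3 and 42.0 FPKM to 3.97 and 5.76 FPKM (-2.61, limma adjusted p = 8.2e-05). At day 6, 2 of these 11 genes were higher in Pcgf5-/- cells and 1 lower. Cth was higher, at 9.12 and 10.9 FPKM (0.81, limma adjusted p = 0.0365), as was the transporter Slc1a4, on chromosome 11 (0.66, limma adjusted p = 0.0459). The transporter Slc7a10 was lower, at 0.565 and 0.610 FPKM against 1.64 and 2.1 FPKM (-0.85, limma adjusted p = 0.0152). Of 10 genes of glutathione breakdown and export 6 fell in wild type and none rose, Lap3, an aminopeptidase, going from 117 and 134 FPKM to 44.2 and 37.5 FPKM (-1.60, limma adjusted p = 5.1e-05), and at day 6 Ggct (0.92, on chromosome 6) and the glutathione exporter Abcc1 (0.63, limma adjusted p = 0.0394) were higher in Pcgf5-/- cells. Of 11 genes of selenoprotein synthesis, the route by which Gpx1, Gpx2, Gpx3 and Gpx4 receive selenocysteine, 4 rose and 1 fell in wild type, and the only one called at day 6 was Eefsec (0.85), which also lies on chromosome 6.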

How the data were processed

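Polyadenylated RNA of 8 samples was analysed. Per the labels and the study's methods, the authors trimmed reads, removed short and identical reads, mapped what was left with TopHat2 2.0.4 onto mm9 and deposited FPKM per gene with its confidence bounds from Cufflinks 2.1.1. The annotation is not given in the sources used here. Removal of identical reads can lower abundant transcripts most. Samples were grouped by their labels. FPKM were tested as log2(FPKM + 1), a scale that understates changes of low genes, for the 13214 genes whose mean exceeded 1 FPKM in 1 condition or more. Limma 3.58.1 (R 4.3.3) with a variance trend was fitted to all 8 samples with a mean per condition and no replicate block, with Benjamini-Hochberg adjustment and a threshold of 0.05. The fit was tested on simulated data. Alternatives were other pseudocounts, FPKM minimums and scalings, replicate blocks, fewer conditions, no trend and leaving out each sample. The members and the other lists were chosen with earlier results of these data known. Named genes are all members, Pcgf5 and, of each other list, up to 3 genes with the largest called changes in wild type over time and between the genotypes at day 6. Tables were handled in Python 3.11.15 with pandas 2.3.3.

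Depth is not recorded in the files. The interval of Cufflinks had a median reach to either side of 78.9% of the FPKM for member values under 1 FPKM, 33.3% from 1 to 5, 16.5% from 5 to 20, 8.92% from 20 to 100 and 4.56% above. It is given for each library on its own and does not hold the spread between samples. Of 298 member values above 0, 54 lay over its upper bound, among them all 8 values of Gpx1, Gsta4, Gstp1 and Gstp2. The labels do not say that a replicate number marks a shared batch, so the numbers were not taken to pair samples.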

Additional observations from a re-analysis of the deposited data

Results flagged for a closer look

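A test of the genotype effect at day 6 minus that at day 0 singled out 3 glutathione genes. The difference was 1.22 for Gpx4, 0.92 for Gsr and 1.08 for Gsta4 on the log2(FPKM + 1) scale (limma adjusted p = 0.0435, 0.0435 and 0.0363). Pcgf5-/- against wild type was -0.32 and then 0.90 for Gpx4, -0.39 and then 0.53 for Gsr, and -0.46 and then 0.61 for Gsta4. The samples of the genotypes overlapped for Gpx4 at day 0 and lay apart for Gsr and Gsta4 at both days.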

How the results depend on the processing

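No member called in the report changed direction under any of the 10 other settings or the 8 fits that left out a library. The count of members called over the days in Pcgf5-/- cells went from 17 to 10 with a mean FPKM over 5, where fewer members were tested, and to 11 with no FPKM minimum, and ran from 10 to 15 with a library left out. In wild type it ran from 12 to 19. Between the genotypes at day 6 it went from 12 to 7 with no FPKM minimum, and ran from 1 to 16 with a library left out. A pseudocount of 0.01 left 1 interaction call of 3, no FPKM minimum or no variance trend left 0, and leaving out a library left 0 to 1. Taking the replicate number as a block gave counts of 20 and 17 over the days in wild type and Pcgf5-/- cells, 0 and 14 between the genotypes at day 0 and day 6, and 3 for the interaction; with a block within each day they were 25, 19, 1 (Gstm5), 18 and 6 in the same order. The differences between replicates 1 and 2 correlated at 0.39 between the genotypes at day 6, 0.10 at day 0 and -0.08 to -0.02 between days, and no label says that a number marks a shared batch, so whether the day 6 samples are paired is not known. Quantile normalization moved the share of higher calls among all tested genes from 67.8% to 51.3% in wild type over the days, from 67.9% to 53.1% in Pcgf5-/- cells and from 43.4% to 57.7% in the interaction; removing chromosome medians moved it from 57.6% to 46.7% at day 6. Of members not called in the report, 38 pairs of gene and comparison changed sign and 28 gained a call under at least 1 setting. The cause of these changes was not tested. Depth limits members under 5 FPKM most.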
